A study of Mus musculus with 8 samples.

Results

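The mitosis and kinetochore genes are a list of 51 mouse genes that act between the end of DNA replication and the separation of daughter cells. They were chosen by name as G2 and M-phase genes: mitotic kinases, kinesins, and parts of the kinetochore, the condensin complex and the cytokinesis machinery. Of the 51 genes 46 were measured, out of 15123 named genes on the arrays. Ccnb1, Espl1, Cenpf, Ncapg and Mki67 were not analysed here, since their names stand on none of the probes used.

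The values come from 8 two-colour arrays of long oligonucleotide probes, each comparing Lgr4 null with wild-type intestinal crypts of the mouse. Lgr4 binds R-spondins, which are secreted and amplify Wnt signals at the cell surface. The null mice carry a gene trap allele of Lgr4 (also called Gpr48) that was back-crossed to the CD1 strain, and the labels give neither ages nor the number of animals in a pool. The groups, of 2 arrays each, were crypts at day 0, crypts after 0.5 and 1 days in Matrigel culture, and crypts cultured for 1 day in the presence of LiCl, an inhibitor of GSK3 that stabilises beta-catenin. The labels give no concentration of LiCl, and their growth protocol names Wnt3a without tying it to single samples. Whether both arrays of a group come from separate cultures or animals is not said in the labels, and p-values therefore measure array-to-array spread that may be technical. No probe used is named Lgr4, so the targeted gene could not be checked, and ratios alone do not show which crypt markers were present.

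Every value is a log2 ratio as deposited (the base is assumed), with null over wild type as the likely direction: -1 is a level halved in the null RNA. For the LiCl arrays no direction could be settled. Over all probes, named or not, their correlation with the 6 other arrays was negative in all 12 pairs (r from -0.49 to -0.09). Most sample labels give wild-type cells with LiCl as their second channel (the source name of 1 array omits LiCl), while the text of the series speaks of control cells. Their values are therefore given as deposited and, where it matters, with the sign turned. The null RNA was labelled with 1 dye on replicate 1 and the other dye on replicate 2 in each group except day 0.5, where the labels give Cy5 for both arrays. These are bulk samples, in which fewer dividing cells and less RNA of a gene per cell cannot be told apart.

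Cell division is driven by CDK1 bound to A- and B-type cyclins. Active CDK1, with Aurora and Polo-like kinases, condenses the chromosomes, builds the spindle and assembles kinetochores, the protein plates that tie centromeres to microtubules. The spindle checkpoint holds cells in metaphase until each kinetochore is attached, and then the anaphase-promoting complex, a ubiquitin ligase, has securin and cyclin B destroyed. Genes of this program are transcribed late in the cell cycle, in large part through FOXM1 and B-MYB, and are low in cells that have left the cycle. In the intestine the dividing cells are the stem cells at the crypt base and the transit-amplifying cells above them, while Paneth cells and the differentiated cells of the villus do not divide.

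The program as a whole was slightly below 0 at day 0 and at day 0.5, far below 0 at day 1 and, as deposited, above 0 with LiCl. The median of the 46 genes was -0.31 and -0.16 on the day 0 arrays, -0.18 and -0.16 on the day 0.5 arrays, -1.72 and -1.47 on the day 1 arrays, and 0.63 and 0.59 on the LiCl arrays. All 46 genes lay below 0 on both day 1 arrays, as did 33.0% of all genes. The day 1 arrays were both below all 4 earlier arrays for 44 of the 46 genes, against 14.7% of all genes.

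**Figure D1:**
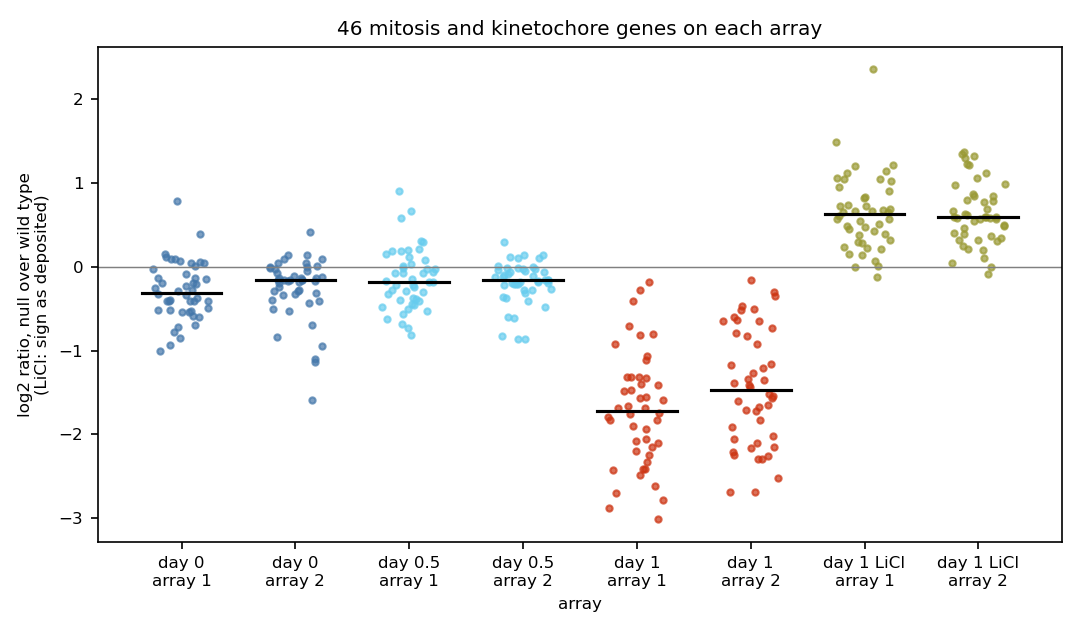
Log2 ratio of each of the 46 genes on each of the 8 arrays, likely null over wild type at days 0 to 1 and of unsettled direction with LiCl, which is shown as deposited. The 2 day 1 arrays hold the low values, with medians of -1.72 and -1.47, and the LiCl arrays the high ones, with medians of 0.63 and 0.59.

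At day 1 the null RNA held less of nearly every gene of the program. Of the 46 genes 43 were lower and 0 higher by limma at an adjusted p under 0.05, against 11.1% of all genes that were lower. The median fitted ratio was -1.53, against 0.00 over all genes, and the range ran from -2.85 to -0.26. Lower by at least 2-fold and past the same threshold were 36 of the 46 genes, against 3.58% of all genes. Among the 100 lowest of the 15123 ratios at day 1 there were 19 of these genes, and among the lowest 500 there were 36. Without either day 1 array the count fell, as did the calls over all genes, and the members still called were all among the 43. The median of the members was then -1.45 without day 1 replicate 1 and -1.71 without day 1 replicate 2.

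CDK1, its cyclins and their transcription factor were all lower at day 1, 4 of 4 measured, with a median of -1.71. Ccna2 read -0.41 and -0.50 at day 0, -0.41 and -0.28 at day 0.5, -2.79 and -2.02 at day 1, and 0.84 and 1.12 with LiCl. Ccna2 encodes cyclin A2, which works in S phase and at mitotic entry. Its day 1 arrays stood apart from the other 6, and the fitted ratio was -2.40 ± 0.18 (SE, n = 2 arrays; limma adjusted p = 2.62e-04), or 5.28-fold lower. Ccnb2 read -0.61 and -1.13 at day 0, 0.21 and 0.11 at day 0.5, -1.79 and -2.05 at day 1, and 0.90 and 0.57 with LiCl. Ccnb2, a B-type cyclin that activates CDK1, was thus low at day 0 as well, near 0 at day 0.5 and lowest at day 1, where it fitted -1.92 ± 0.15 (SE, n = 2 arrays; limma adjusted p = 3.22e-04). Cdk1 read -0.14 and 0.01 at day 0, -0.24 and -0.22 at day 0.5, -1.40 and -1.60 at day 1, and 0.48 and -0.09 with LiCl. The kinase itself fitted -1.50 ± 0.14 (SE, n = 2 arrays; limma adjusted p = 4.94e-04), a mean of probes that disagree (described with the single probes). Foxm1 read -0.23 and -0.53 at day 0, 0.04 and -0.28 at day 0.5, -1.66 and -1.27 at day 1, and 0.65 and 0.32 with LiCl. Foxm1 encodes the forkhead factor that activates G2 and M-phase genes, and at -1.47 ± 0.15 (limma adjusted p = 7.08e-04) it was lower as well.

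The mitotic kinases and Tpx2 held both the lowest gene of the program and 1 of the 3 that did not pass. Pbk read -0.13 and -0.14 at day 0, -0.73 and -0.36 at day 0.5, -3.01 and -2.69 at day 1, and 1.05 and 1.33 with LiCl. Pbk, a kinase active in mitotic cells, had the ninth lowest ratio of all genes at day 1, -2.85 ± 0.14 (SE, n = 2 arrays; limma adjusted p = 7.74e-05), which is 7.2-fold lower. Tpx2 read -0.999 and -0.34 at day 0, -0.81 and 0.12 at day 0.5, -2.33 and -2.29 at day 1, and 0.21 and 1.37 with LiCl. Tpx2 targets Aurora A to the spindle, and its arrays differed widely at day 0, at day 0.5 and with LiCl but lay close together at day 1. Aurka read -0.52 and -0.11 at day 0, -0.44 and -0.20 at day 0.5, -2.14 and -1.91 at day 1, and 1.06 and 0.87 with LiCl. Aurora A, the spindle pole kinase, fitted -2.03 ± 0.10 (SE, n = 2 arrays; limma adjusted p = 8.18e-05). Plk1 at -0.99 ± 0.15 and Melk at -0.92 ± 0.12 were lower too. Nek2 read 0.07 and -0.05 at day 0, 0.11 and -0.19 at day 0.5, -0.28 and -0.30 at day 1, and -0.01 and 0.04 with LiCl. Nek2, a centrosome kinase, fitted -0.29 ± 0.11 (SE, n = 2 arrays; limma adjusted p = 0.111), so it did not pass, with an unadjusted 95% interval of -0.54 to -0.04.

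All 4 genes of the chromosomal passenger complex, which corrects faulty attachments at the centromere and then moves to the central spindle, were lower at day 1 (median -1.72). Birc5 read -0.54 and -0.16 at day 0, -0.07 and -0.01 at day 0.5, -2.48 and -2.24 at day 1, and 0.72 and 0.68 with LiCl. Birc5 encodes survivin, the subunit that brings the complex to centromeres, and its day 1 values sat far below each earlier array, with a fit of -2.36 ± 0.10 (SE, n = 2 arrays; limma adjusted p = 5.97e-05). Incenp read -0.72 and -0.16 at day 0, -0.49 and -0.32 at day 0.5, -2.05 and -1.70 at day 1, and 0.29 and 0.66 with LiCl. The scaffold Incenp fitted -1.88 ± 0.16 at day 1 (limma adjusted p = 4.08e-04). Aurkb read 0.09 and -0.28 at day 0, 0.08 and -0.61 at day 0.5, -1.57 and -1.54 at day 1, and 1.02 and 0.24 with LiCl. Its kinase Aurora B was uneven at the other times, while its day 1 arrays lay close together and fitted -1.56 ± 0.22 (limma adjusted p = 0.00284). Cdca8, which encodes borealin, fitted -1.26 ± 0.18, also a mean of probes that disagree.

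Of the spindle checkpoint 5 of 5 genes were lower at day 1, with a median of -1.45. Mad2l1 read -0.41 and -0.18 at day 0, -0.68 and -0.48 at day 0.5, -2.07 and -1.83 at day 1, and 0.73 and 0.78 with LiCl. Mad2l1, the checkpoint protein that binds and holds Cdc20, was the lowest of them at -1.95 ± 0.11 (SE, n = 2 arrays; limma adjusted p = 9.21e-05). Bub1b read -0.49 and -0.44 at day 0, -0.30 and -0.21 at day 0.5, -2.41 and -1.34 at day 1, and 0.51 and 0.63 with LiCl. Bub1b encodes BubR1, another part of the inhibitor of Cdc20, and its day 1 arrays differed more than those of Mad2l1 (-1.87 ± 0.19, limma adjusted p = 8.16e-04). Bub1 read 0.01 and -0.08 at day 0, -0.28 and -0.83 at day 0.5, -1.55 and -1.35 at day 1, and 0.67 and 0.62 with LiCl. The kinase Bub1 thus showed 1 low array at day 0.5 while both were low at day 1, at -1.45 ± 0.14. Bub3 read -0.41 and 0.41 at day 0, -0.56 and 0.00 at day 0.5, -0.80 and -0.65 at day 1, and 0.72 and 0.36 with LiCl. Bub3, which carries Bub1 and BubR1 to kinetochores, was the least affected of the class at -0.73 ± 0.17 (SE, n = 2 arrays; limma adjusted p = 0.0198). Ttk, the kinase also called Mps1, fitted -1.15 ± 0.24 from arrays at -1.83 and -0.47.

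The genes of the anaphase machinery, a class in which Cdca3 was also placed, had the lowest class median, -2.12, and 4 of 4 measured were lower at day 1. Cdca3 read -0.94 and -0.95 at day 0, -0.50 and 0.01 at day 0.5, -2.41 and -2.16 at day 1, and 0.67 and 0.58 with LiCl. Cdca3, a trigger of mitotic entry that acts through a ubiquitin ligase, was low at day 0 and lower at day 1, at -2.28 ± 0.14 (SE, n = 2 arrays; limma adjusted p = 1.29e-04). Ube2c read -0.03 and -1.10 at day 0, 0.58 and -0.86 at day 0.5, -1.82 and -2.69 at day 1, and 2.35 and 0.80 with LiCl. Ube2c is the ubiquitin-conjugating enzyme of the anaphase-promoting complex, and it had the largest standard error of the 46 genes, since the arrays of each group lay far apart. The day 1 fit was -2.26 ± 0.48 (SE, n = 2 arrays; limma adjusted p = 0.0155). Pttg1 read -0.41 and -0.84 at day 0, 0.19 and -0.15 at day 0.5, -1.68 and -2.29 at day 1, and 1.04 and 0.22 with LiCl. Securin, the product of Pttg1, holds separase inactive until anaphase, and its gene fitted -1.99 ± 0.24 at day 1. Cdc20 read -0.51 and -0.24 at day 0, -0.02 and -0.12 at day 0.5, -1.31 and -1.67 at day 1, and 0.82 and 0.58 with LiCl. Cdc20, the activator of the complex, fitted -1.49 ± 0.13 (limma adjusted p = 4.55e-04).

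The kinesin motors were lower in 6 of 7 cases, with a median of -1.29. Kif22 read -0.85 and -0.70 at day 0, -0.37 and -0.15 at day 0.5, -2.43 and -2.21 at day 1, and 1.11 and 1.23 with LiCl. Kif22, a motor on chromosome arms, was lower at both day 0 and day 1, with -2.32 ± 0.11 (SE, n = 2 arrays; limma adjusted p = 7.39e-05) at day 1. Kif4 read -0.58 and -0.17 at day 0, -0.18 and -0.04 at day 0.5, -1.59 and -1.16 at day 1, and 0.07 and 0.48 with LiCl. Kif4, which organises the chromosome axis and the central spindle, fitted -1.38 ± 0.16 at day 1. Kif2c read -0.26 and -0.01 at day 0, -0.02 and -0.12 at day 0.5, -2.10 and -0.65 at day 1, and 0.57 and 0.60 with LiCl. Kif2c depolymerises microtubules at centromeres, and its day 1 arrays lay far apart, though both were below the other 6 (-1.37 ± 0.23, limma adjusted p = 0.00526). Kif23, Kif11 and Kif15 fitted -1.29, -0.92 and -0.77. Kif20a read -0.09 and 0.10 at day 0, -0.07 and -0.17 at day 0.5, -0.18 and -0.35 at day 1, and 0.15 and 0.00 with LiCl. Kif20a, a motor of the central spindle, had the smallest day 1 value of the 46 genes at -0.26 ± 0.11 (SE, n = 2 arrays; limma adjusted p = 0.141), with an unadjusted 95% interval of -0.51 to -0.02.

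All 7 measured genes of the centromere and kinetochore were lower at day 1, with a median of -1.59. Cenpa read -0.78 and -0.40 at day 0, -0.08 and -0.02 at day 0.5, -2.70 and -2.52 at day 1, and 1.14 and 0.98 with LiCl. Cenpa, the histone H3 variant that marks centromeres, was below 0 at day 0, near 0 at day 0.5 and lowest at day 1, at -2.61 ± 0.10 (SE, n = 2 arrays; limma adjusted p = 5.95e-05), 6.11-fold lower. All 4 subunits of the NDC80 complex, the microtubule clamp of the outer kinetochore, were measured, and they lay close together at day 1: Spc25 -1.73 ± 0.14, Nuf2 -1.60 ± 0.23, Spc24 -1.59 ± 0.15 and Ndc80 -1.43 ± 0.10. Spc25 read -0.40 and -0.33 at day 0, -0.21 and -0.02 at day 0.5, -1.94 and -1.51 at day 1, and 0.54 and 0.85 with LiCl. Nuf2 read 0.16 and -0.29 at day 0, 0.20 and -0.86 at day 0.5, -1.49 and -1.72 at day 1, and 0.67 and 0.54 with LiCl. Nuf2 alone of the 4 had a day 0.5 array as low as -0.86, yet both its day 1 arrays were lower still. Cenpe read -0.33 and 0.04 at day 0, -0.03 and 0.14 at day 0.5, -0.92 and -0.79 at day 1, and 0.45 and 0.40 with LiCl. Cenpe, a motor that moves chromosomes to the spindle equator, had the smallest value of the class at -0.86 ± 0.10 (SE, n = 2 arrays; limma adjusted p = 0.00153), again a mean of probes that disagree. Cenph, of the inner kinetochore, fitted -1.19 ± 0.22.

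Condensin and the mitotic chromosome were lower in 5 of 5 measured genes, with a median of -1.88. Top2a read -0.52 and -0.29 at day 0, -0.62 and 0.11 at day 0.5, -2.87 and -2.26 at day 1, and 0.57 and 1.06 with LiCl. Top2a encodes topoisomerase II alpha, which untangles sister chromatids, and it fitted -2.57 ± 0.22 (SE, n = 2 arrays; limma adjusted p = 4.18e-04) at day 1, 5.93-fold lower. Smc4 read 0.39 and -0.19 at day 0, -0.45 and -0.02 at day 0.5, -2.24 and -1.65 at day 1, and 0.95 and 0.84 with LiCl. Smc2 read 0.12 and -0.01 at day 0, -0.38 and -0.19 at day 0.5, -1.33 and -1.41 at day 1, and 0.69 and 0.49 with LiCl. Smc4 and Smc2 are the ATPase arms of condensin, and both were closer to 0 on each earlier array than at day 1, where they fitted -1.95 ± 0.20 and -1.37 ± 0.11. Ncaph read -0.41 and -0.13 at day 0, 0.91 and -0.21 at day 0.5, -2.20 and -1.57 at day 1, and 0.65 and 0.99 with LiCl. Ncaph, which closes the condensin I ring, had the highest fitted day 0.5 value of the program, 0.45, from arrays that lay far apart, and -1.88 ± 0.26 at day 1. Ncapd2 read -0.70 and -0.17 at day 0, -0.21 and -0.19 at day 0.5, -1.69 and -0.60 at day 1, and 0.32 and 0.60 with LiCl. Ncapd2, a second subunit of condensin I, fitted -1.14 ± 0.20 (limma adjusted p = 0.00737).

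Of the cytokinesis genes 3 of 4 were lower at day 1. Prc1 read -0.27 and 0.14 at day 0, -0.29 and 0.15 at day 0.5, -2.62 and -2.15 at day 1, and 1.20 and 1.30 with LiCl. Prc1 bundles the microtubules of the central spindle and fitted -2.38 ± 0.15 (SE, n = 2 arrays; limma adjusted p = 1.46e-04) at day 1. Ect2 read 0.78 and 0.05 at day 0, 0.31 and -0.18 at day 0.5, -1.90 and -2.10 at day 1, and 1.49 and 1.34 with LiCl. Ect2, the exchange factor that turns on RhoA at the cleavage site, was the highest gene of the program at day 0, at 0.42, and low at day 1 (-1.9995 ± 0.17, limma adjusted p = 4.31e-04). Anln read -0.21 and 0.14 at day 0, -0.17 and -0.06 at day 0.5, -0.81 and -0.51 at day 1, and 0.14 and 0.56 with LiCl. Anillin, the ring scaffold encoded by Anln, fitted -0.66 ± 0.15. Racgap1 read 0.06 and -0.02 at day 0, 0.01 and 0.29 at day 0.5, -0.41 and -0.16 at day 1, and -0.12 and 0.20 with LiCl. Racgap1, the partner of Ect2 at the central spindle, did not pass at -0.29 ± 0.13 (SE, n = 2 arrays; limma adjusted p = 0.192), with an unadjusted 95% interval of -0.59 to 0.02.

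**Figure D2:**
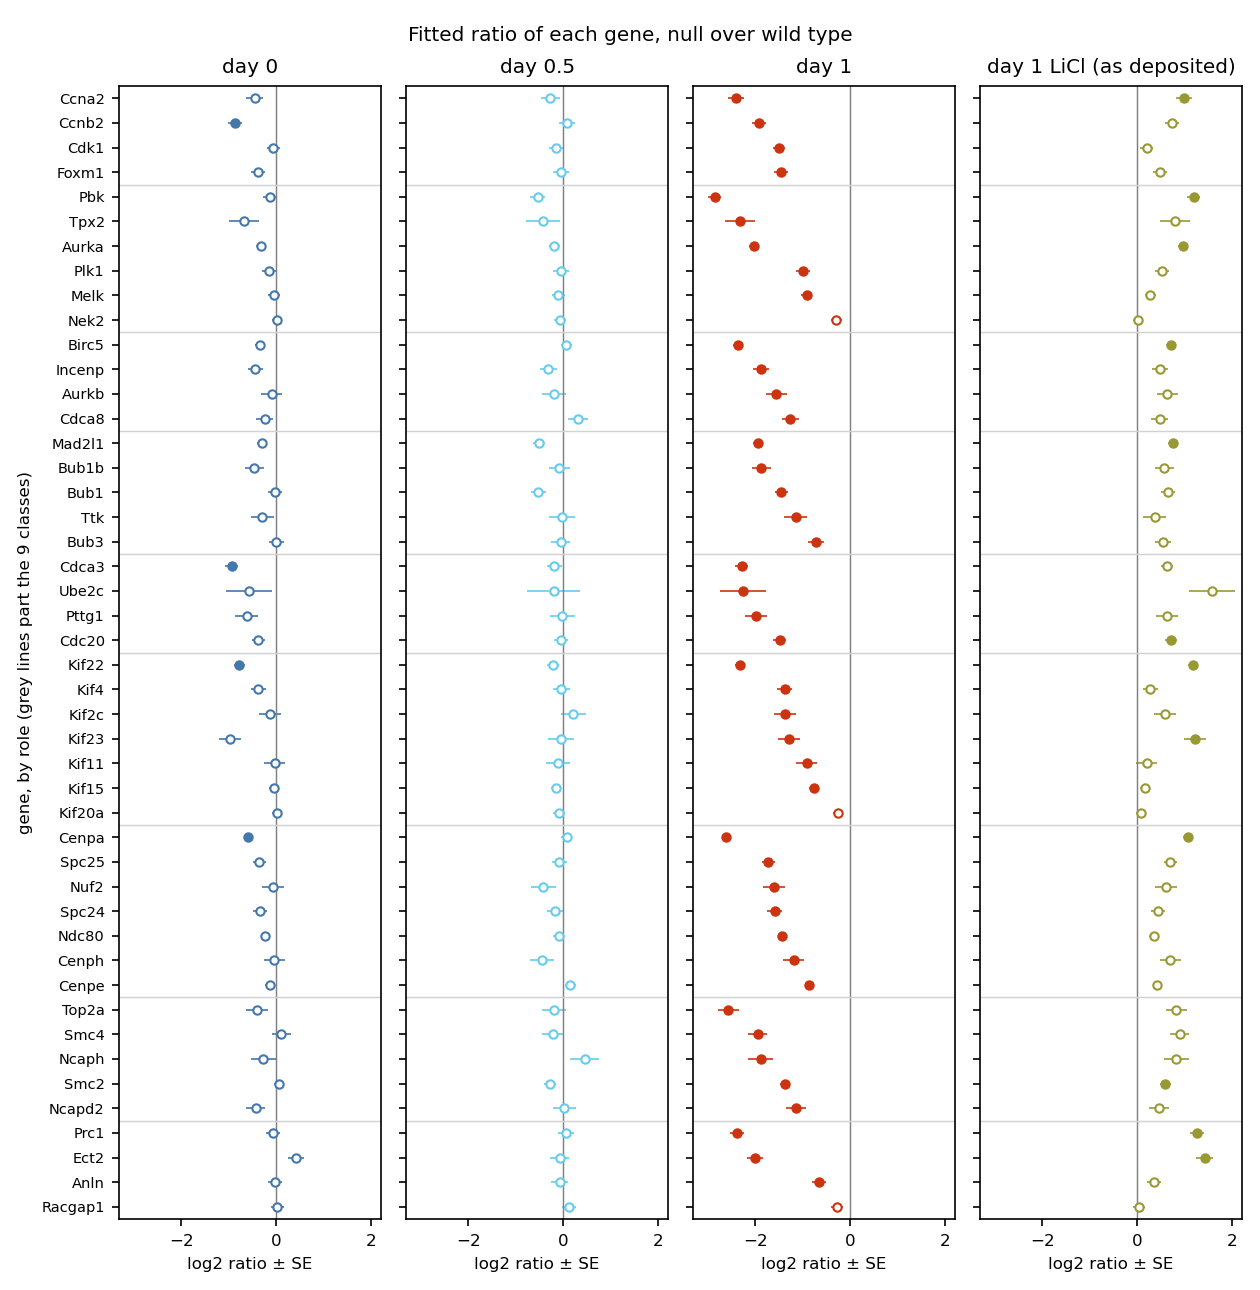
Fitted log2 ratio ± SE of the 46 genes in the 4 groups (2 arrays each, LiCl with its unsettled sign as deposited), ordered by role, with filled points for limma adjusted p under 0.05. Filled points number 4 at day 0, 0 at day 0.5, 43 at day 1 and 12 with LiCl as deposited, and the 3 open points at day 1 are Nek2, Kif20a and Racgap1.

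At least 2 probes measured 15 of the 46 genes, and these did not always read alike. Fitted one by one, a choice made after the data were seen, 54 of the 66 probes of the program were lower at day 1 and 0 higher, against 10.0% of all probes lower. In 7 of the 15 genes some probes were lower and others did not pass, in 7 all were lower, and in Racgap1 none was. The probes of Cdk1 read -2.59 and -3.05 at day 1 for one and -0.21 and -0.14 for the other. Those of Plk1 read -2.40 and -2.04 for one and 0.27 and 0.20 for the other. The means of Cdk1 and Plk1 thus lie between a strongly lower probe and one near 0. Of 3 probes of Kif15, one fitted -1.98 and the others -0.23 and -0.09, and of 3 probes of Anln, one fitted -1.83 and the others -0.21 and 0.05. Cenpe had probes at -1.74, -0.83 and -0.01. Cdca8 had a lower probe at -1.94 and one at -0.58 that did not pass. Nek2, which did not pass as a mean, had a probe that fitted -0.72 ± 0.17 (SE; limma adjusted p = 0.0221 over all probes) beside one at 0.14. The 3 probes of Birc5 all lay between -2.84 and -2.03 on the day 1 arrays.

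**Figure D3:**
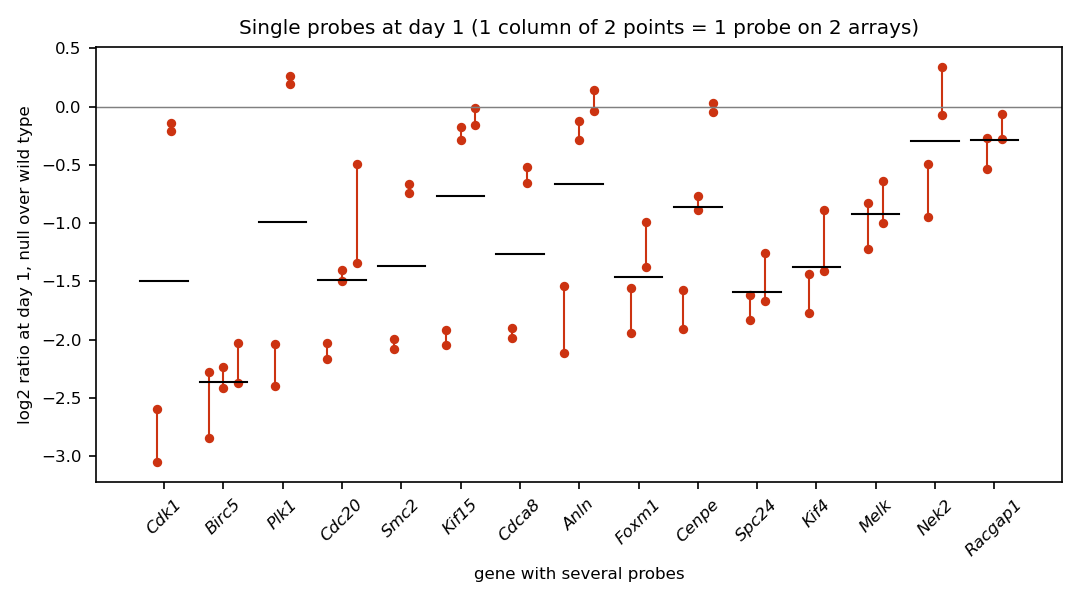
Log2 ratios at day 1 of the 15 genes with more than 1 probe, where each joined pair of points is 1 probe on the 2 arrays and the bar is the gene's fitted value. For Cdk1, Plk1, Kif15 and Anln a low probe stands beside probes near 0, while the 3 probes of Birc5 lie between -2.84 and -2.03.

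Genes of the late cell cycle are known to share promoter elements, the CCAAT box bound by NF-Y and the cell cycle genes homology region (CHR) bound by the MuvB core of the DREAM and B-MYB complexes. The 250 bases before the start in RefSeq (GRCm38.p6) were searched for CCAAT and for the CHR letters TTTGAA and TTCGAA, both on either strand, so that ATTGG and TTCAAA also count, and overlapping matches were each counted. RefSeq windows were at hand for 42 of the 51 listed genes, measured or not, 45 windows in all because some have more than 1 start. A CCAAT box was in 34 of the 45 windows, or 75.6%, against 35.2% of the 15217 windows of all measured genes. CHR letters were in 20, or 44.4%, against 14.7%. Both were in 18, or 40.0%, against 5.36%. At least 2 CCAAT boxes were in 22, or 48.9%, against 11.45%. For comparison, the windows of DNA replication genes, another program that was lower at day 1, held both elements in 10.6% of 47, and those of the further spindle and kinetochore genes in 17.6% of 74, with a CCAAT box in 50.0% and CHR letters in 29.7%. A match is a string of letters and not a shown binding site. The 6 windows below are those of the members with the lowest day 1 ratios among the genes that hold both elements, and the capitals mark the matches. They lie at chr11:99024190-99024439 (minus strand, Top2a), chr7:80294226-80294475 (plus strand, Prc1), chr7:127042421-127042670 (minus strand, Kif22), chr2:164769679-164769928 (plus strand, Ube2c), chr3:27153855-27154104 (minus strand, Ect2) and chr9:70421555-70421804 (minus strand, Ccnb2). Each is read 5′ to 3′ towards the gene.
Top2a: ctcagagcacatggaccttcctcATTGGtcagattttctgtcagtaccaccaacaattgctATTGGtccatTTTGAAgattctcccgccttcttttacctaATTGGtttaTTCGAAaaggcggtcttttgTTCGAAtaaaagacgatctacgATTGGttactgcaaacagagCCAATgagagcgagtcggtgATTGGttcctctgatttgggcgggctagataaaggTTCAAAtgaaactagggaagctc
Prc1: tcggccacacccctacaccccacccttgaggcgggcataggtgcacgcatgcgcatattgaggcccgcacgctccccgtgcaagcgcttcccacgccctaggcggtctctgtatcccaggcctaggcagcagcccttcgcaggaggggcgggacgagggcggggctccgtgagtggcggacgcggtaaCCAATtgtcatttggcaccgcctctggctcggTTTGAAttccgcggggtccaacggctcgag
Kif22: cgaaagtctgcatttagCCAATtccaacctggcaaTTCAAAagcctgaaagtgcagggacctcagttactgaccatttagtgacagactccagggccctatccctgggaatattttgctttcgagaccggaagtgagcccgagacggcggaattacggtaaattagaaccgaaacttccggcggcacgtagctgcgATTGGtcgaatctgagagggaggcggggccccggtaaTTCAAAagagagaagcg
Ube2c: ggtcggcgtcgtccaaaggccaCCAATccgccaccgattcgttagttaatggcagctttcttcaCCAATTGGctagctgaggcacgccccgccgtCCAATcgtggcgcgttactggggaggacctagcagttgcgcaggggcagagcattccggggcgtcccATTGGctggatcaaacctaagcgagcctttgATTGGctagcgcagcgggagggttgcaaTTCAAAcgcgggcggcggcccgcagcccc
Ect2: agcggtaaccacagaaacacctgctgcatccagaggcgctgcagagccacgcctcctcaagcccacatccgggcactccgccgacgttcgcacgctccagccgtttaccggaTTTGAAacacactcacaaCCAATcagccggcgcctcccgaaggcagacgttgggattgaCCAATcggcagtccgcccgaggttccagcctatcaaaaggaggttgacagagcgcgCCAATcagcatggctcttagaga
Ccnb2: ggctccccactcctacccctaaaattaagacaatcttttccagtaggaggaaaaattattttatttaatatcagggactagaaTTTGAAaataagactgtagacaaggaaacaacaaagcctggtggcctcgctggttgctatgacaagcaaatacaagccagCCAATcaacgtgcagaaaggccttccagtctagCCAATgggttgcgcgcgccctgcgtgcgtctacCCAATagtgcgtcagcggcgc
The Top2a window holds 6 CCAAT boxes and 4 CHR strings, while that of Prc1 holds 1 of each. In the Ube2c window, with 6 CCAAT matches, a pair of boxes on opposite strands overlaps. The fitted day 1 ratios of these 6 genes lay between -2.57 and -1.92, but the genes were picked for low ratios, so the range does not bear on the elements. Other members with low day 1 ratios held neither element in their window, among them Birc5 at -2.36, Pttg1 at -1.99 and Mad2l1 at -1.95. A second window of Prc1, from another start, held no CHR string.

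At day 0 the program was only slightly lower in the null RNA. By limma 4 of the 46 genes were lower and 0 higher, against 1.01% of all genes lower, and the median was -0.26. The 4 were the centromeric histone Cenpa at -0.59 ± 0.10 (SE, n = 2 arrays; limma adjusted p = 0.0315), the kinesin Kif22 at -0.78 ± 0.11 (SE, n = 2 arrays; limma adjusted p = 0.0199), the cyclin Ccnb2 at -0.87 ± 0.15 (SE, n = 2 arrays; limma adjusted p = 0.0348) and Cdca3 at -0.94 ± 0.14 (SE, n = 2 arrays; limma adjusted p = 0.0221). Kif23, the motor that partners Racgap1, had the lowest fit, -0.98 ± 0.24 (SE, n = 2 arrays; limma adjusted p = 0.103), but its arrays read -0.37 and -1.59 and it did not pass. At an unadjusted p under 0.05, 17 of the 46 genes were lower and 1 was higher, against 7.33% of all genes lower and 7.64% higher. The count was 2 with arrays scaled to equal spread, where the calls over all genes in either direction went from 337 to 256. Without any 1 array of day 0.5 or day 1 the calls fell for the members and over all genes. Without either day 0 array the calls of the members were lost, and those over all genes fell as well. The median of the members was then -0.22 without day 0 replicate 1 and -0.27 without day 0 replicate 2. Cell type markers moved in the same RNA at day 0: 7 of 10 immune cell markers were lower, with a median of -1.21, as were 9 of 10 Paneth cell markers, with a median of -1.23. Of crypt base stem cell markers 2 of 10 were lower and 0 higher, with a median of -0.34. Of enterocyte markers 2 of 11 were higher and 0 lower, with a median of 0.46, where 185 of all 15123 genes were higher. Of goblet and enteroendocrine cell markers 0 were called. The part of these markers in the result was not tested.

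At day 0.5 no gene of the program was called. By limma at an adjusted p under 0.05, 0 of the 46 were lower and 0 higher, where 0.159% of all genes were lower, and at an unadjusted p under 0.05, 3 were lower, against 5.47% of all genes. The fitted ratios ran from -0.54 (Pbk) to 0.45 (Ncaph), with a median of -0.09, which was -0.14 without day 1 replicate 1, without day 1 replicate 2, without the dye term, or with arrays scaled to equal spread. The DNA replication genes, which act before mitosis in the cycle, had at the same time a median of -0.34 over 44 measured, with 0 called and 23 lower at an unadjusted p under 0.05. The arrays of day 0.5 carry the same dye label on the null RNA, so their own dye effect rests on the other groups. With the dye term left out, 1 of the 46 genes was called. The calls over all genes in either direction then rose as well, from 66 to 341.

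Changes of the ratio itself were called up to day 1 but not up to day 0.5. From day 0 to day 0.5 limma called 0 of 46 changes, against 0.132% of all genes. At an unadjusted p under 0.05, 6 were higher, against 4.60% of all genes, and 0 lower. From day 0.5 to day 1 the ratio of 27 genes fell and of 0 rose, against 1.43% of all genes that fell, with a median change of -1.43. Cenpa changed most, by -2.68 ± 0.15 (SE; limma adjusted p = 0.00366). From day 0 to day 1 the ratio of 30 genes fell and of 0 rose, against 4.79% of all genes, with a median change of -1.35 and the largest fall in Pbk, -2.71 ± 0.20 (SE; limma adjusted p = 0.00115). The day 0.5 to day 1 count was 0 without day 1 replicate 1, 0 with arrays scaled to equal spread, 14 without day 1 replicate 2, 8 without either day 0 array, and 8 and 12 without replicates 1 and 2 of day 0.5. Over all 15123 genes the number of changes called in either direction from day 0.5 to day 1 went likewise from 301 to 0 without day 1 replicate 1, to 0 with scaling and to 82 without day 1 replicate 2. The day 0 to day 1 count was 11 with scaling, where the changes called over all genes in either direction went from 1269 to 384. It fell without either array of day 0 or of day 1, as did the changes called over all genes. The changes share the day 1 arrays with the day 1 comparison itself.

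With LiCl at day 1 the genes lay on the other side of 0 as deposited. By limma 12 of the 46 were higher and 0 lower, against 1.37% of all genes higher, with a median of 0.62 and a range of 0.02 to 1.58. The 12 were Ccna2, Aurka, Pbk, Birc5, Mad2l1, Cdc20, Kif22, Kif23, Cenpa, Smc2, Prc1 and Ect2, and their fitted ratios ran from 0.59 in Smc2 to 1.42 ± 0.17 (SE, n = 2 arrays; limma adjusted p = 0.0163) in Ect2. Ube2c had the highest ratio, 1.58 ± 0.48, but its arrays read 2.35 and 0.80 and it did not pass. With the sign of the LiCl arrays turned, 21 of the 46 genes were lower, against 2.59% of all genes, and the median was -0.62. The count as deposited was 29 with arrays scaled to equal spread, where the calls over all genes in either direction went from 390 to 1444. With any 1 array left out, the calls fell for the members and over all genes. Without either LiCl array the calls of the members were lost. Their median was then 0.70 without LiCl replicate 1 and 0.45 without LiCl replicate 2.

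The difference between day 1 with and without LiCl kept its direction under both signs, with fewer calls under one. As deposited, the ratio of 43 of the 46 genes was higher with LiCl by limma, against 10.4% of all genes, with a median difference of 2.19. As deposited Pbk differed most, by 4.04 ± 0.20 (SE; limma adjusted p = 1.00e-04). With the LiCl sign turned, 25 of the 46 were still higher, against 3.74% of all genes, with a median difference of 0.99. Top2a then differed most, by 1.75 ± 0.23 (SE; limma adjusted p = 0.00734), and Pbk by 1.66 ± 0.17. Both LiCl arrays lay above both day 1 arrays for all 46 genes as deposited, against 27.7% of all genes, and for 39 of the 46 with the sign turned, against 24.7%. Over the 46 genes the group means of day 1 and LiCl had a Pearson correlation of -0.76 and a Spearman correlation of -0.80 as deposited, and of 0.76 and 0.80 with the LiCl sign turned. Only the size is thus settled: genes far from 0 at day 1 tended to be far from 0 with LiCl. This is a description, since the points share probes and arrays. Kif20a, Nek2 and Racgap1, which did not pass at day 1, fitted 0.07, 0.02 and 0.04 with LiCl. What the second channel of the LiCl arrays held is not settled, so the difference cannot be read as an effect of LiCl on the null cells.

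**Figure D4:**
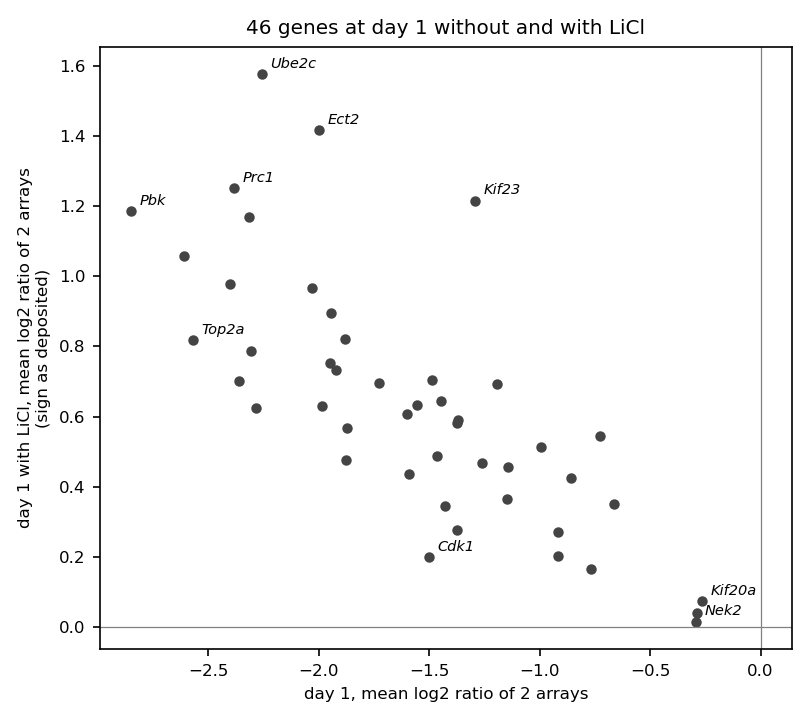
Mean log2 ratio of the 2 LiCl arrays, as deposited, against the mean of the 2 day 1 arrays for each of the 46 genes. The points run from Kif20a, Nek2 and Racgap1 near 0 on both axes to Pbk at -2.85 and 1.19, with a Pearson correlation of -0.76 that becomes 0.76 if the LiCl sign is turned.

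Other cell cycle genes were set beside the program at day 1, where 11.1% of all genes were lower. Of 60 measured further spindle and kinetochore genes 42 were lower and 0 higher by limma, with a median of -0.81. The lowest were Cdca5 (sororin, which protects cohesion) at -2.24 ± 0.18, Cep55 (which acts in abscission) at -2.24 ± 0.10, Haus1 (augmin, which branches spindle microtubules) at -2.16 ± 0.14 and Cdca2 (which recruits a phosphatase to chromatin) at -1.99 ± 0.11. Of the other subunits and regulators of the anaphase-promoting complex, beside Cdc20 and Ube2c, 4 of 16 were lower, with a median of -0.28. These were Fbxo5, which encodes the inhibitor Emi1, at -1.95 ± 0.12, and the subunits Anapc5 at -1.001 ± 0.10, Cdc16 at -0.83 ± 0.19 and Anapc15 at -0.64 ± 0.16. Of 18 regulators of G2 entry 9 were lower, with a median of -0.54. Both the brake Wee1, the kinase that inhibits CDK1, at -2.04 ± 0.20, and the activating phosphatase Cdc25c at -0.92 ± 0.19 were among them, with Cks2 at -1.26 ± 0.12 and Cks1b at -1.03 ± 0.15. DNA replication genes were lower in 38 of 44 cases and higher in 0, with a median of -1.35, led by Orc6 at -2.50 ± 0.20, Mcm2 at -2.42 ± 0.12, Mcm5 at -2.32 ± 0.10 and Prim1 at -2.22 ± 0.15.

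**Figure D5:**
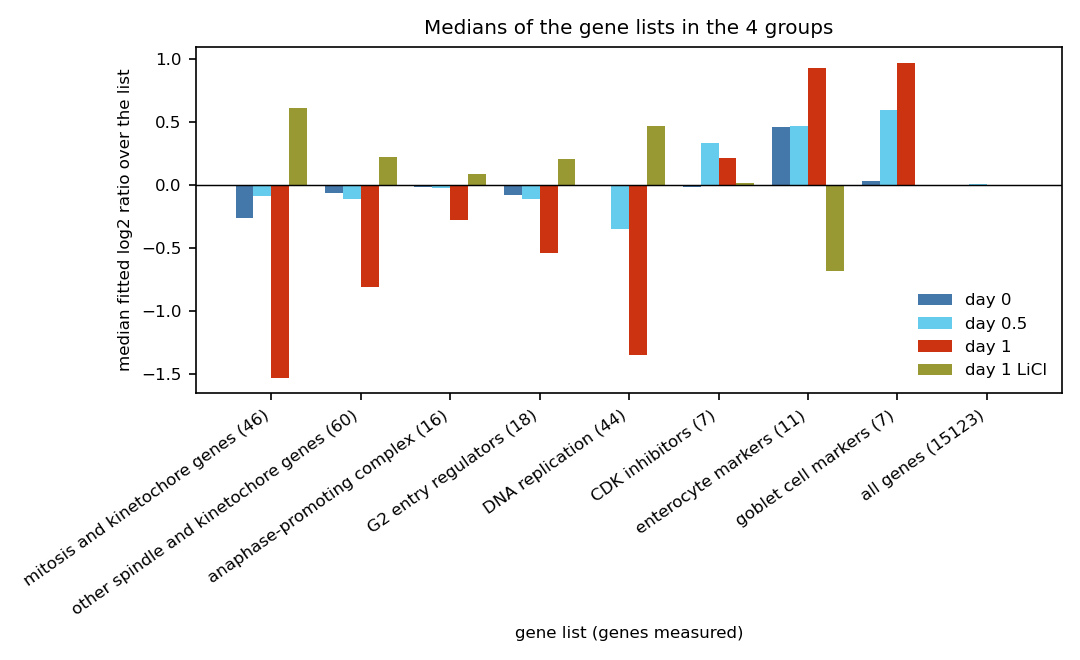
Median fitted log2 ratio of gene lists in the 4 groups, with the number of genes measured in brackets and LiCl as deposited. At day 1 the medians are -1.53 for the mitosis and kinetochore genes, -1.35 for DNA replication, 0.93 for enterocyte markers and 0.97 for goblet cell markers.

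Markers of crypt and villus cells moved in the same RNA at day 1. Of crypt base stem cell markers 7 of 10 were lower, against 11.1% of all genes, with a median of -1.34. Of Paneth cell markers 7 of 10 were lower and 1 higher, with a median of -1.22. Of enterocyte markers 7 of 11 were higher, against 9.38% of all genes, and 0 lower, with a median of 0.93, of goblet cell markers 5 of 7 were higher, with a median of 0.97, and of enteroendocrine markers 8 of 13 were higher, with a median of 0.84. Markers of cells from outside the epithelium moved little by the medians of their lists, though not in every gene. Of immune markers 2 of 10 were lower (median -0.07, lowest -1.30), where 11.1% of all genes were lower. Of mesenchyme markers 1 of 12 was higher (median 0.03, highest 1.02), where 9.38% of all genes were higher. Of endothelium and red blood cell markers 0 of 7 and 0 of 3 were called, with 0 of 7 and 1 of 3 past an unadjusted p of 0.05. With LiCl as deposited, the enterocyte markers had a median of -0.68, with 2 of 11 lower and 0 higher, against 1.21% of all genes lower. With the sign turned their median was 0.68, with 4 of 11 higher, against 351 of all 15123 genes. The medians of the other epithelial lists with LiCl were 0.14 for Paneth cell, 0.09 for stem cell, 0.00 for goblet cell and -0.08 for enteroendocrine markers, with 1 stem cell marker higher and 0 others called. The part of these markers in the ratios of the mitosis and kinetochore genes was not tested.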

How the data were processed

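Two-colour arrays of Lgr4 null against wild-type mouse crypt RNA were used, 8 arrays in 4 groups of 2, grouped by sample title. Per the labels' protocols, total RNA (MirVana kit) was turned into aminoallyl antisense RNA and coupled to Cy5 or Cy3. The authors deposited log2 values (base assumed), 1 ratio of both channels per probe and array. For background correction, normalization and log base, the sources used here give nothing. Signal over background is unknown without intensities, and the number of arrays limits the precision. Array medians lay between -0.006 and 0.001.

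The platform's gene table named 22941 of 38467 probes. After 636 named probes of control series were left out, 22305 probes of 15123 genes remained, and probes of a gene were averaged. Arrays were centred on their median. limma 3.58.1 in R 4.3.3 fitted the 4 group means plus a dye term (null RNA in Cy5 or in Cy3) to all 8 arrays, with eBayes (3 residual and 4.09 prior degrees of freedom). Benjamini-Hochberg adjustment ran over all 15123 genes, and calls are at an adjusted p under 0.05. A change between groups is a contrast in the same fit. Intervals and errors come from this fit, which was tested on simulated data.

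The members, the companion and marker lists and the tests were chosen with earlier results of these data known. Genes named were the members, with values on every array for those with the largest and smallest day 1 ratios of their class and the lead members of the other comparisons, and up to 4 genes of each companion list with the largest called day 1 ratio. Promoter windows are from RefSeq (GRCm38.p6). Alternatives were a replicate block, no dye term, a swapped dye at day 0.5, scaling, no centring, the median of probes, control-series probes kept, the LiCl arrays left out or turned, each array left out in turn, and single probes.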

Additional observations from a re-analysis of the deposited data

Results flagged for a closer look

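The changes of the ratio between groups were tested directly in the limma fit, and those below are the ones in which members passed the threshold. From day 0.5 to day 1 the ratio of 27 of the 46 mitosis and kinetochore genes fell, most in Cenpa, with a change of -2.68, where 1.43% of all genes fell. That count became 0 with arrays scaled to equal spread, where the changes called over all genes went from 301 to 0. From day 0 to day 1 the ratio of 30 genes fell, most in Pbk, with a change of -2.71, where 4.79% of all genes fell. From day 1 to day 1 with LiCl the ratio of 43 genes was higher as deposited, most in Pbk, by 4.04, where 10.4% of all genes were higher. With the LiCl sign turned the number was 25, where 3.74% of all genes were higher, and Top2a differed most, by 1.75, with Pbk at 1.66. The second channel of the LiCl arrays is not settled, so this difference cannot be read as an effect of LiCl on the null cells. In each of these 3 comparisons 0 of the 46 genes moved past the threshold in the other direction. Both day 1 arrays lay below the 2 arrays of the other group for Cenpa and for Pbk. These genes were picked for the largest changes, so the order of their arrays adds no support.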

How the results depend on the processing

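Of 142 alternative counts over the 8 comparisons, 111 lay within 1.5 times the reported count, 30 did not and 1 turned direction. Counts that stayed at 0 were placed among the 111, and some alternatives left out an array of another group. The total is therefore no measure of stability. Of 782 alternative day 1 values of single genes, 750 kept their direction and side of the threshold, 32 lost the call and 0 turned. In most of these alternatives the day 1 ratio was fixed in advance, since it rests on the 2 day 1 arrays alone. Only the call could change there, so these totals say little on the direction. Of 1917 alternative values of genes called in the other comparisons, 1552 kept both, 353 lost the call and 12 turned. At day 1 the count was 43, and 25 to 43 with each array left out in turn, 39 with arrays scaled to equal spread (Anln, Bub3, Kif11 and Ube2c lost) and 41 with the median of probes (Anln and Kif15 lost). At day 0 the count of 4 became 7 with the replicate block and 2 with scaling, and ran from 0 to 4 with an array left out. At day 0.5 the count of 0 became 1 when the dye term was dropped and 1 when replicate 2 was treated as swapped, and stayed at 0 to 0 with an array left out, as did the change from day 0 to day 0.5. The change from day 0.5 to day 1 went from 27 to 0 with scaling and ran from 0 to 27 with an array left out, and that from day 0 to day 1 went from 30 to 11 and ran from 6 to 34. With LiCl the count of 12 became 24 with the replicate block, 29 with scaling, 21 lower with the sign turned, and 0 to 10 with an array left out. The change from day 1 to LiCl went from 43 to 25 with the sign turned and was 39 to 42 with an array left out. Turning the LiCl sign makes by construction the median -0.62 and the fitted values of Ccna2 -0.98, Aurka -0.97, Pbk -1.19, Birc5 -0.70, Mad2l1 -0.75, Cdc20 -0.70, Kif22 -1.17, Kif23 -1.22, Cenpa -1.06, Smc2 -0.59, Prc1 -1.25 and Ect2 -1.42. The cause of the other differences was not tested. Where an array is left out, the lone array of that group is assumed to vary like the others. Wherever the count of members fell with an array left out, the calls over all genes fell as well. With all arrays kept, the calls over all genes in either direction also moved. At day 0 they went from 337 to 610 with the replicate block and 256 with scaling. At day 0.5 they went from 66 to 341 without the dye term and 321 with the swap. At day 1 they went from 3103 to 1780 with scaling and 3060 with the median of probes. With LiCl they went from 390 to 922 with the block, 1444 with scaling and 743 with the sign turned. The replicate numbers are shared by the groups, but they are only 2, and the differences between replicates correlated at 0.21 to 0.278 over all genes in the 6 pairs of groups, so the replicate block treats a shared number as a pairing that the labels do not state. Depth and signal over background are unknown, and 2 arrays a group leave 3 residual degrees of freedom.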

Other observations

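Regulators of cell cycle transcription were less affected at day 1 than the mitosis and kinetochore genes by count and median. Of 20 measured genes of the E2F, DREAM and MuvB group 9 were lower and 0 higher by limma, against 11.1% of all genes lower, with a median of -0.51. The lowest were Tfdp1, the dimer partner of E2F factors, at -1.48 ± 0.14, the histone-binding Rbbp4 at -1.41 ± 0.13, the pocket protein gene Rbl1 at -1.03 ± 0.11 and Mybl2, which encodes B-MYB, at -1.03 ± 0.11. Of 7 measured CDK inhibitors 3 were higher and 0 lower at day 1, against 9.38% of all genes higher, and 3 others lay below 0, of which 2 were lower at an unadjusted p under 0.05. Those higher were Cdkn2b at 1.19 ± 0.14, Cdkn1c at 1.14 ± 0.21 and Cdkn1a at 0.85 ± 0.13. At day 0.5, where no mitosis or kinetochore gene was called, Cdkn2b read 1.03 ± 0.16, which did not pass (limma adjusted p = 0.0645).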
